A study of Saccharomyces cerevisiae with 21 samples.

Results

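The mRNAs of the subunits of RNA polymerases I, II and III were followed across 8 groups of budding yeast libraries. The members were all lines of the expression table whose symbol is RPA, RPB or RPC followed by digits only, together with RPO21, RPO26, RPO31 and RET1. This gave 31 genes of the 7123 lines with values. Of these, 7 encode subunits found only in polymerase I, 7 only in polymerase II and 10 only in polymerase III, 2 are shared by polymerases I and III, and 5 by all 3 enzymes. The 21 libraries were mRNA from Saccharomyces cerevisiae cultures of 7 strains, sequenced in 2 series for a study of how phosphate genes and the non-coding RNAs around them are transcribed. Series 1 held BY4741ΔP (3 cultures), Tpho84-Tcyc1 (3 cultures) and their parent BY4741 (3 cultures). Series 2 held BY4741ΔU (3 cultures), ume6Δ (3 cultures), pho4Δ (2 cultures), pho84Δ (2 cultures) and BY4741 (2 cultures, its replicates 4 and 5). What is altered in the strains ΔP, ΔU and Tpho84-Tcyc1 is not spelled out in the labels. BY4741 is a haploid laboratory strain of mating type a that needs added histidine, leucine, methionine and uracil. UME6 encodes a DNA-binding repressor of early meiotic genes, PHO4 the activator of phosphate-starvation genes, and PHO84 the high-affinity phosphate transporter. All cultures, BY4741 included, grew at 30 °C in synthetic medium with 7.2 mM phosphate and 50 mM KCl, from an absorbance of 0.1 at the start to 0.5 at harvest. Parallel cultures of a strain were started from 1 overnight culture, so a p-value here weighs a difference against the scatter of sister cultures, not of independent clones.

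RNA polymerase I makes the large ribosomal RNA precursor, RNA polymerase II makes mRNAs and many non-coding RNAs, and RNA polymerase III makes tRNAs and the 5S ribosomal RNA. The enzymes share a core built on a pair of large subunits that form the active centre, and differ in the smaller subunits added for initiation, elongation and RNA cleavage. In growing yeast most transcription serves ribosome production, and many genes for ribosome assembly, including those of polymerases I and III, carry a promoter element called PAC (polymerase A and C), often beside an A- and T-rich element called RRPE.

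Per library, 10.98 to 49.8 Mreads (megareads) lay behind the values, so that the least abundant member in any library, RPC17, still had 347 reads. Values are reads per Mread (RPM), and differences are given as log2(RPM + 1) of the strain minus BY4741 of the same series. A gene was called where limma's adjusted p was under 0.05 in a fit over all genes. The deleted genes were nearly without reads: UME6 was at 0 to 0.343 RPM in ume6Δ, against 53.5 to 69.3 RPM in BY4741 of series 2, and PHO4 at 0.0757 to 0.116 RPM in pho4Δ, against 74.98 to 81.5 RPM. PHO84 was at 0.0771 to 0.143 RPM in pho84Δ and 0.0577 to 0.0757 RPM in pho4Δ, against 130 to 136 RPM in BY4741 of series 2. It was also nearly without reads in Tpho84-Tcyc1, at 0.807, 1.42 and 1.23 RPM, against 157, 135 and 76.2 RPM in BY4741 of series 1. PHO84 was at 306 to 427 RPM in BY4741ΔP and 210 to 388 RPM in BY4741ΔU. In ume6Δ it was at 8.41 RPM in replicate 1, against 83.8 and 89.8 RPM in replicates 2 and 3. The a-cell receptor STE2 was at 519 to 706 RPM in every library and the alpha-factor gene MF(ALPHA)1 at no more than 1.24 RPM, while SAG1, the alpha-agglutinin gene, was at 21.8 to 43.2 RPM. Since the strand setting of the counting is not given, reads of a gene and of its antisense RNA cannot be told apart. The measurements are bulk RNA scaled to the library total, in which fewer cells and less RNA per cell cannot be told apart.

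Per kilobase of coding sequence, the members spanned a wide range of levels. The subunits shared by all 3 enzymes were among the highest, with RPB10 at a median of 711 RPM per kb over the 21 libraries, RPC10 at 463, RPO26 at 386, RPB8 at 372 and RPB5 at 247 RPM per kb. RPB4 of polymerase II, at 282 RPM per kb, lay above RPB5. The pair shared by polymerases I and III came next, RPC40 at 237 and RPC19 at 229 RPM per kb. Among subunits of 1 enzyme only, medians ran from 67.0 (RPA190) to 182 (RPA34) RPM per kb in polymerase I, from 67.5 (RPO21) to 282 (RPB4) RPM per kb in polymerase II, and from 31.5 (RPO31) to 214 (RPC11) RPM per kb in polymerase III. The 2 large subunits of polymerase III, RPO31 and RET1, were at 31.5 and 40.7 RPM per kb, and those of polymerase I, RPA190 and RPA135, at 67.0 and 120 RPM per kb. Coding length differs widely among these genes: RPB10 and RPC10 have 213 coding bases each and RPB5 648, against 4383 in RPO31 and 4995 in RPA190. The part of length in this ranking was not tested, so it does not compare expression between the classes.

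Sequence upstream of the coding starts separated the enzymes. The core of the PAC element, GATGAG (read on the other strand as CTCATC), was searched on both strands of the 300 bases before the coding start in the RefSeq R64 genome. It was found for 6 of 7 polymerase I genes, 8 of 10 polymerase III genes and both genes shared by these enzymes, but for 0 of 7 polymerase II genes and 0 of 5 genes shared by all 3 enzymes, against 19.1% of 6026 yeast promoters. The longer form GCGATGAG (read on the other strand as CTCATCGC), which contains the core, was present for 7 of the 31 genes, against 4.03% of promoters. RRPE, searched as AAAAATTTT and on the other strand as AAAATTTTT, which can overlap each other, was present for 16 of the 31, against 7.32%. The core of the Ume6 site URS1, GGCGGC (read on the other strand as GCCGCC), and the Pho4 site CACGTG, which reads alike on both strands, were found for 0 of the 31, against 5.19% and 3.55% of promoters. The site of the factor Reb1, TTACCCG (read on the other strand as CGGGTAA), was found for 5 of the 31, against 7.87%. A match is a description of these letters and not of binding. The windows of 60 bases below are examples from genes with a PAC core that were called lower in BY4741ΔU, 5 of polymerase I, 2 of polymerase III and 1 shared by both. Each reads 5′ to 3′ on the gene's strand, with 1 copy of the PAC core in capitals. In RPA190 and RPA135 a further copy overlaps the capitals by 1 base.
RPA190, chrXV:960793-960852, plus strand: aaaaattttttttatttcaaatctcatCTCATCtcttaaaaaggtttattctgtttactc
RPA135, chrXVI:581268-581327, minus strand: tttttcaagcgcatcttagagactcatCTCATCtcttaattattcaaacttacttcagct
RPA49, chrXIV:182706-182765, minus strand: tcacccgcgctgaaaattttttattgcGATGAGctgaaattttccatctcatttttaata
RPA34, chrX:140300-140359, plus strand: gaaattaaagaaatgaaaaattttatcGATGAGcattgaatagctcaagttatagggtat
RPA43, chrXV:960332-960391, minus strand: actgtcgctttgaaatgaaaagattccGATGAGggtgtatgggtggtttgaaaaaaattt
RPC40, chrXVI:746886-746945, minus strand: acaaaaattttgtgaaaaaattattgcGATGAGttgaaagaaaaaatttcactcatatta
RPC82, chrXVI:919131-919190, minus strand: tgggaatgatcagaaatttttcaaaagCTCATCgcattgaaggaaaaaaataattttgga
RPC31, chrXIV:348572-348631, minus strand: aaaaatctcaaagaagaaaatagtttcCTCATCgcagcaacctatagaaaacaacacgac
RPA190 and RPA43 are divergent neighbours whose coding regions lie 804 bases apart, so they share 1 upstream region.

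In BY4741ΔU, 5 of 7 subunits of polymerase I and 8 of 10 of polymerase III fell against BY4741 of series 2, and 1 of 7 of polymerase II fell. Of the 31 members, 19 were lower, 1 was higher and 11 were not called, where 13.2% of the 5840 genes tested were lower and 36.5% higher. All 3 BY4741ΔU cultures lay below both BY4741 cultures for 21 of the 31, where this held for 17.3% of genes tested. The median log2 difference was -0.55 over the 7 polymerase I genes, -0.33 over the 10 of polymerase III, and -0.13 over the 7 of polymerase II, of which 1 was higher. The median over all genes tested was 0.15, so that relative to it the enzyme medians were -0.70, -0.48 and -0.28.

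**Figure D1:**
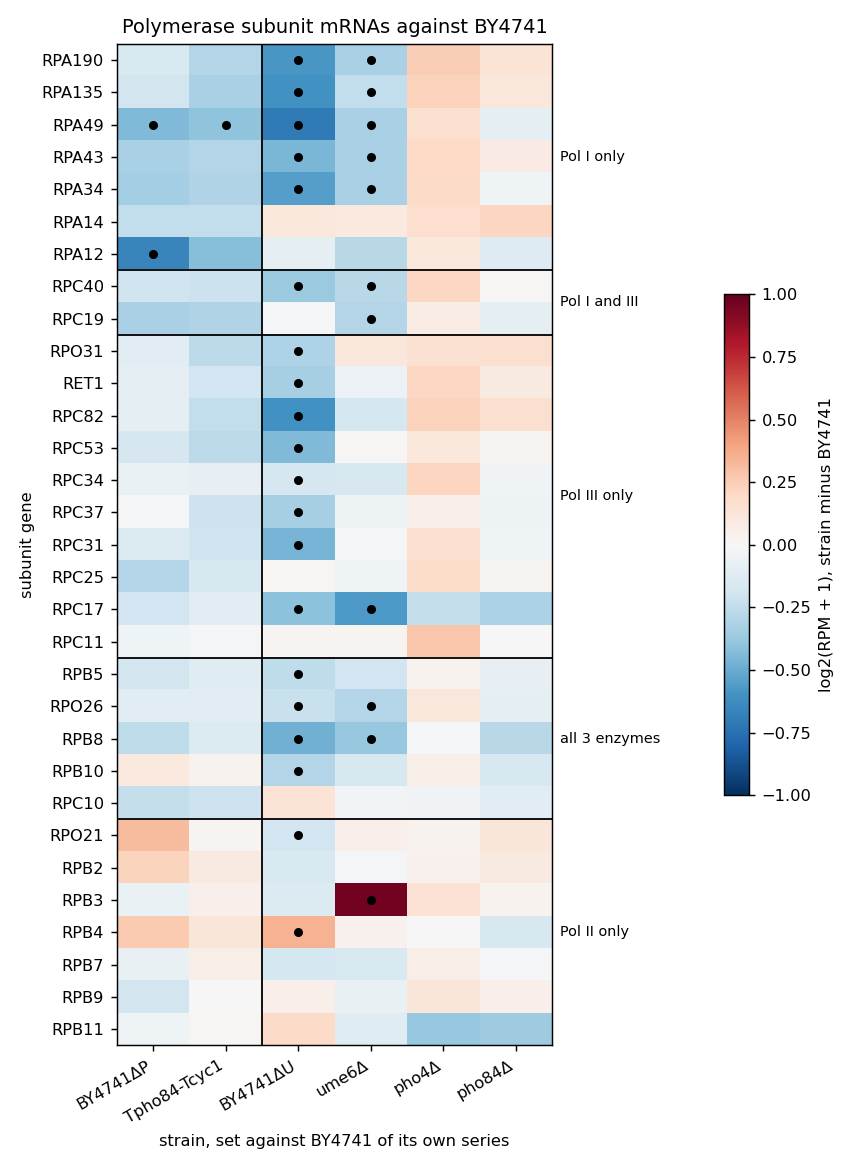
Colour gives the difference in log2(RPM + 1) between each strain and BY4741 of its own series for the 31 subunit genes, grouped by enzyme and ordered by coding length within a group. Black dots mark calls at a limma adjusted p under 0.05. BY4741ΔU has 20 dots and ume6Δ 11, most of them on genes of polymerases I and III.

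RPA190, the largest subunit of the enzyme, was at 325, 347 and 335 RPM in BY4741ΔU, against 467 and 542 RPM in BY4741. RPA135, its partner in the active centre, was at 340, 348 and 332 RPM in BY4741ΔU, against 501 and 534 RPM in BY4741. For both genes every BY4741ΔU culture lay below both BY4741 cultures. RPA190 fell by 0.58 (SE 0.0707, limma adjusted p 2.11e-05) and RPA135 fell by 0.60 on the log2 scale (SE 0.0582, limma adjusted p 3.53e-06).

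RPA49 and RPA34 form a heterodimer that acts in initiation and elongation. RPA49 was at 136, 116 and 115 RPM in BY4741ΔU, against 187 and 212 RPM in BY4741, and fell by 0.71 (SE 0.0773, limma adjusted p 8.97e-06). RPA34 was at 105, 106 and 99.7 RPM in BY4741ΔU, against 148 and 156 RPM in BY4741, and fell by 0.55 (SE 0.0615, limma adjusted p 1.14e-05). Neither gene's groups overlapped. RPA43, a stalk subunit that contacts the initiation factor Rrn3, was at 89.8, 89.2 and 85.9 RPM in BY4741ΔU, against 111 and 134 RPM in BY4741, and fell by 0.46 (SE 0.0825, limma adjusted p 4.60e-04). The 2 shortest polymerase I genes were not called: RPA12, the RNA cleavage subunit, had a difference of -0.09, and RPA14, the other stalk subunit, 0.11. RPA14 also overlaps the uncharacterised gene YDR157W by 8 bases on the same strand, where reads could count for either.

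In polymerase III all 3 genes of the initiation trimer, RPC82, RPC34 and RPC31, were called lower. RPC82 was at 60.7, 60.5 and 47.3 RPM in BY4741ΔU, against 83.1 and 87.5 RPM in BY4741, a difference of -0.60 (SE 0.0980, limma adjusted p 2.17e-04). RPC31 was at 50.4, 55.2 and 52.1 RPM in BY4741ΔU, against 66.0 and 80.1 RPM in BY4741, a difference of -0.46 (SE 0.0871, limma adjusted p 6.61e-04). RPC34 changed least of the 3, by -0.17 (limma adjusted p 0.0462), and lost its call in 6 of 13 alternatives, among them leaving out BY4741ΔU replicate 1 or 3 or BY4741 replicate 4 or 5 (limma adjusted p 0.0538 to 0.166). The TFIIF-like pair RPC53 and RPC37 differed by -0.44 and -0.34, and the large subunits RET1 and RPO31 by -0.33 and -0.31. Of the stalk pair, RPC17 fell by 0.41 while RPC25 had a difference of 0.02 and was not called. Without BY4741 replicate 5, RPC17 (-0.25, limma adjusted p 0.148) and RPC37 (-0.24, limma adjusted p 0.101) were not called, and without BY4741 replicate 4, RPC53 was not (-0.35, limma adjusted p 0.0573). The cleavage subunit RPC11 had a difference of 0.03 and was not called.

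RPC40, which with RPC19 forms the assembly platform of polymerases I and III, was at 196, 171 and 187 RPM in BY4741ΔU, against 234 and 245 RPM in BY4741, and fell by 0.37 (SE 0.0735, limma adjusted p 8.91e-04). RPC19 itself had a difference of -0.01 and was not called. Of the subunits common to all 3 enzymes, RPB8 fell by 0.48, RPB10 by 0.29, RPB5 by 0.25 and RPO26 by 0.23, while RPC10 had a difference of 0.14 and was not called. RPB5 lost its call in 5 of 13 alternatives, leaving out BY4741ΔU replicate 1 or 2 or BY4741 replicate 4 or 5 among them (limma adjusted p 0.0546 to 0.0882). RPB8 was at 123, 117 and 120 RPM in BY4741ΔU, against 154 and 183 RPM in BY4741.

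Within polymerase II, RPO21, the largest subunit with the repeat-bearing tail, was at 314, 351 and 362 RPM in BY4741ΔU, against 390 and 392 RPM in BY4741, and fell by 0.19 (SE 0.0700, limma adjusted p 0.0337). RPO21 was not called without BY4741ΔU replicate 1 or BY4741 replicate 4 or 5 (limma adjusted p 0.0888 to 0.121), nor with only these groups in the fit (limma adjusted p 0.102). RPB4, which with RPB7 forms the stalk of the enzyme, was at 235, 235 and 239 RPM in BY4741ΔU, against 188 and 183 RPM in BY4741. It was the only member called higher, by 0.35 (SE 0.0650, limma adjusted p 6.19e-04). RPB4 was not called once the trend with coding length described below was removed (0.14, limma adjusted p 0.0558). The other large subunit RPB2, the platform subunits RPB3 and RPB11, RPB7 and RPB9 had differences between -0.18 (RPB7) and 0.19 (RPB11), and none was called.

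Scaling by TMM lowered the median of all genes in this comparison by 0.137 on the log2 scale and turned the split of all calls to 1360 higher and 1396 lower in BY4741ΔU, against 2133 higher and 771 lower as deposited. Under it 4 polymerase II genes were lower, RPB2 (-0.29), RPB3 (-0.27) and RPB7 (-0.32) joining RPO21 (-0.33), and the counts of polymerases I and III did not move.

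**Figure D2:**
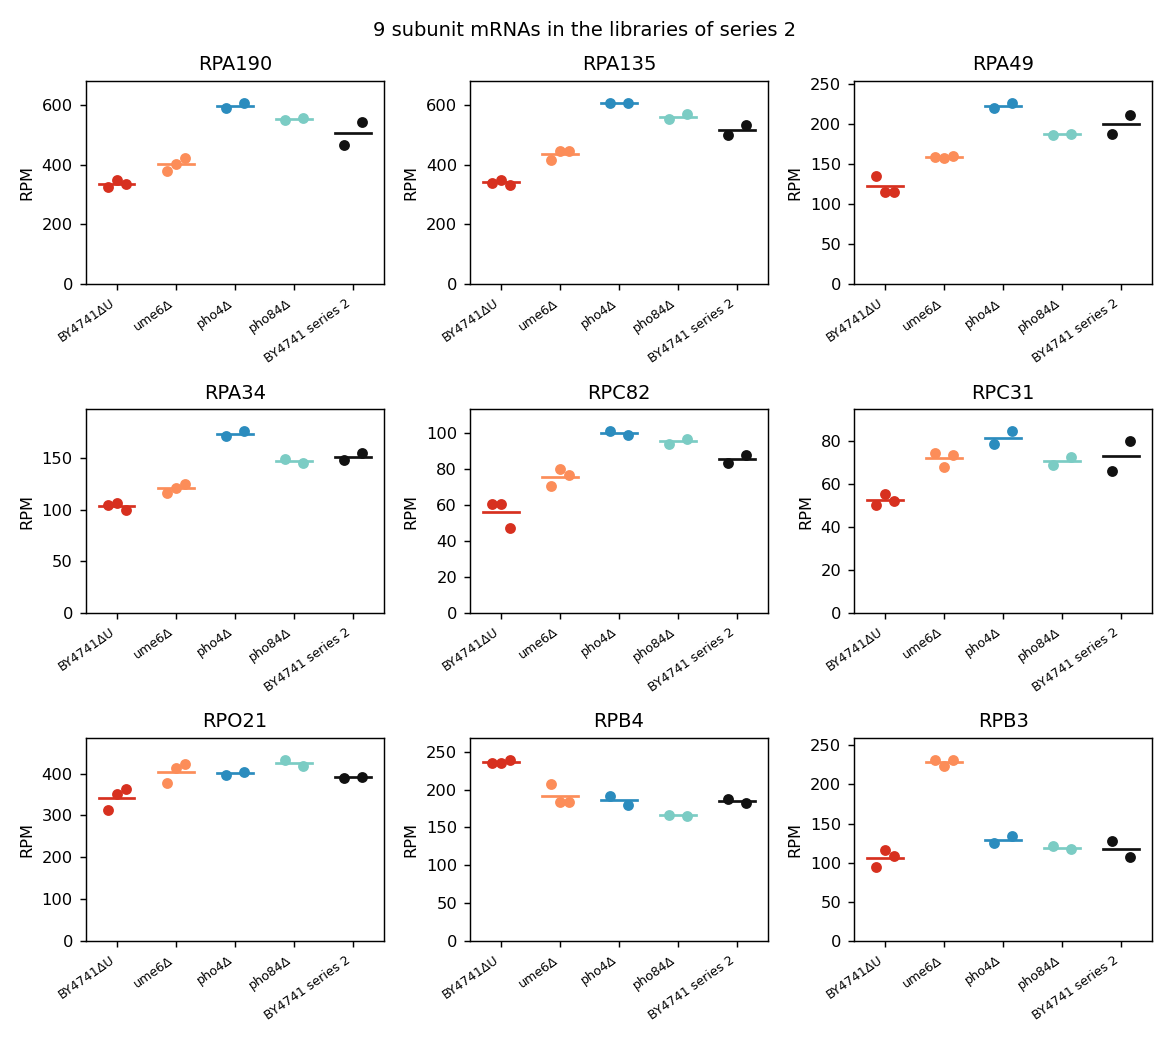
Points give RPM per library for 9 subunit genes in the libraries of series 2, and bars the group means. In BY4741ΔU the polymerase I genes RPA190, RPA135, RPA49 and RPA34 and the polymerase III genes RPC82 and RPC31 lie below BY4741, RPB4 lies above it, and RPB3 is at 223 to 232 RPM in ume6Δ, against 107 and 128 RPM in BY4741.

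Coding length moved with these values. Across the 31 members the log2 difference had a Spearman correlation of -0.57 with coding length, and across 5638 genes of -0.17; genes are not independent replicates and share these libraries. Removing the length trend from every library left 25 members lower and 0 higher, with medians of -0.67, -0.45 and -0.22 in polymerases I, III and II. The shares of all genes called under this setting are not given here, so the 25 have no background beside them. With BY4741 of series 1 as the control, RPA190 (0.12, not called) and RPO21 (0.59) turned direction among the members called lower. RET1 (-0.02), RPO31 (-0.06), RPC17 (-0.18) and RPC34 (-0.23) lost their calls. Further members, not called against BY4741 of series 2, also turned and are listed in the closing section.

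Factors that work with the enzymes did not follow one direction in BY4741ΔU, where 13.2% of all genes tested were lower and 36.5% higher. Of 9 polymerase I initiation factors 4 were lower and 1 higher: the core factor genes RRN11 and RRN7 fell by 0.38 and 0.26, and UAF30, of the upstream activating factor, rose by 0.53. Of 11 polymerase II general and elongation factors 3 were lower and 1 higher, among them the elongation factors SPT6 (-0.38) and SPT5 (-0.30) and TFIIB, SUA7 (0.26). Of 10 polymerase III factors 0 were lower and 2 higher, the repressor MAF1 (0.32) and the TFIIIC subunit TFC3 (0.27). Of 8 assembly and import factors 2 were lower, NPA3 (-0.34) and BUD27 (-0.34), and 3 higher, led by RTR1 (0.46) and IWR1 (0.39).

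In ume6Δ, polymerase I subunits were again lower than in BY4741 of series 2, polymerase III subunits mostly were not called, and 1 polymerase II subunit, RPB3, was higher by close to 1 on the log2 scale. Of the 31 members, 10 were lower and 1 was higher, where 11.3% of all genes tested were lower and 23.1% higher. All 3 ume6Δ cultures lay below both BY4741 cultures for 16 of the 31, where this held for 22.1% of genes tested. By enzyme, 5 of 7 polymerase I genes, 1 of 10 polymerase III genes, both genes shared by polymerases I and III, 2 of 5 genes shared by all 3 and 0 of 7 polymerase II genes were lower. The medians were -0.32 in polymerase I, -0.05 in polymerase III and -0.01 in polymerase II, against 0.04 over all genes. The comparison used the same 2 BY4741 libraries as that of BY4741ΔU, so the values of both strains move together with these controls.

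RPA190 was at 379, 403 and 423 RPM in ume6Δ, against 467 and 542 RPM in BY4741, a difference of -0.33 (SE 0.0707, limma adjusted p 2.58e-03). RPA135 was at 416, 447 and 447 RPM in ume6Δ, against 501 and 534 RPM in BY4741, a difference of -0.24 (SE 0.0582, limma adjusted p 4.97e-03). RPA34 was at 116, 121 and 125 RPM in ume6Δ, against 148 and 156 RPM in BY4741, a difference of -0.33 (SE 0.0615, limma adjusted p 8.43e-04). In all 3 genes every ume6Δ culture lay below both BY4741 cultures. RPA43 and RPA49 were also lower, by -0.32 and -0.33, while RPA12 (-0.28) and RPA14 (0.10) were not called.

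In polymerase III only the stalk subunit RPC17 was called, at 29.8, 26.9 and 29.3 RPM in ume6Δ, against 38.3 and 48.4 RPM in BY4741, a difference of -0.57 (SE 0.116, limma adjusted p 1.54e-03). The remaining 9 polymerase III genes had differences between -0.17 (RPC82) and 0.12 (RPO31). RPC19 and RPC40 differed by -0.29 and -0.27, and the common subunits RPB8 and RPO26 by -0.38 and -0.29. Without BY4741 replicate 5, which held the higher level of RPA190, RPA135, RPA34, RPA43 and RPA49, 4 members were lower and 1 higher, and RPA34 was the polymerase I gene still called. TMM scaling gave 14 lower members and 1 higher in ume6Δ, with 1207 of all genes higher and 941 lower, against 1349 and 662 as deposited.

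RPB3, the platform subunit of polymerase II, was at 231, 223 and 232 RPM in ume6Δ, against 128 and 107 RPM in BY4741 of series 2. The groups were far apart, and RPB3 rose by 0.96 on the log2 scale (SE 0.0887, limma adjusted p 8.14e-07). RPB3 is the only member on chromosome IX. In ume6Δ the median difference over the 205 tested genes of that chromosome was 1.04, with quartiles of 0.91 and 1.20, and RPB3 lay above 34.6% of them. On the other 15 chromosomes the medians lay between 0.003 and 0.08. Set against the BY4741 mean, the chromosome IX median was 1.04, 1.03 and 1.06 in the 3 ume6Δ cultures, and between -0.02 and 0.22 in every other library of the study. The genes on either side moved alike: TIM44 was at 394, 381 and 415 RPM in ume6Δ, against 184 and 181 RPM in BY4741, and HIS6 at 109, 105 and 109 RPM in ume6Δ, against 52.0 and 56.1 RPM in BY4741. DNA was not measured, and the loss of UME6 and the level of the whole chromosome IX cannot be told apart for RPB3. With the genes of chromosome IX, RPB3 among them, left out of the scaling and the fit, 10 members were lower and 0 higher. The shares of all genes under that setting are not given here.

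**Figure D3:**
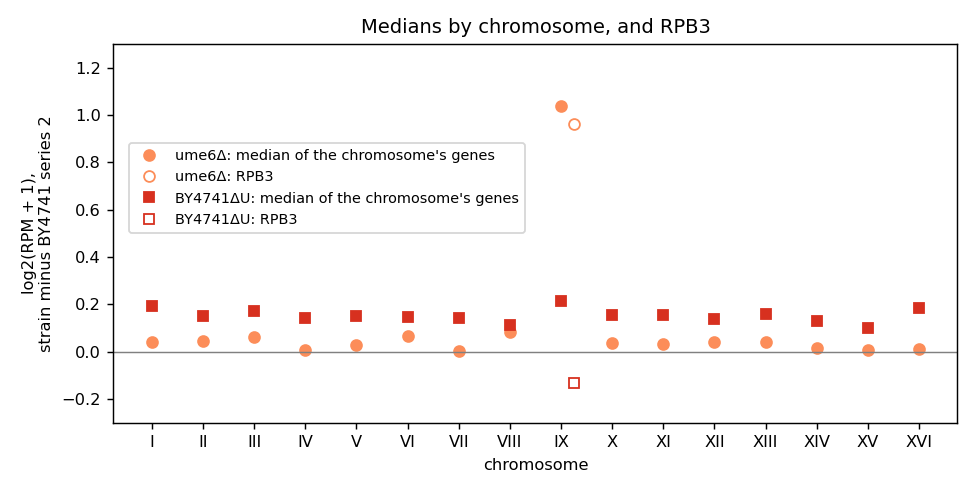
Filled symbols give the median difference in log2(RPM + 1) of each chromosome's tested genes, and open symbols that of RPB3, for ume6Δ and BY4741ΔU against BY4741 of series 2. Chromosome IX stands at 1.04 in ume6Δ with RPB3 at 0.96, while the other 15 chromosomes lie between 0.003 and 0.08.

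Among the partner lists in ume6Δ, the core factor genes of polymerase I, RRN11 and RRN6, rose by 0.61 and 0.59, while HMO1, a high-mobility-group protein of ribosomal genes, fell by 0.51 and RRN7 fell by 0.32, so that 2 of 9 were higher and 2 lower, where 23.1% of all genes tested were higher and 11.3% lower. The TATA-binding protein gene SPT15 (-0.16) was the 1 lower of 11 polymerase II factors, with 0 higher. Of 10 polymerase III factors TFC4 (0.20) was higher and TFC8 (-0.32) lower. Of 8 assembly and import factors 0 were called.

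Set directly against BY4741ΔU, ume6Δ had higher levels of 10 of the 17 subunit mRNAs found only in polymerase I or III. Of the 31 members 12 were higher and 3 lower in ume6Δ, where 20.1% of genes tested were higher and 28.7% lower. The 12 comprised 4 of 7 polymerase I genes, 6 of 10 polymerase III genes and, in polymerase II, RPO21 and RPB3. RPO31, the largest subunit of polymerase III, was at 152, 172 and 178 RPM in ume6Δ, against 127, 122 and 122 RPM in BY4741ΔU, a difference of 0.43 (SE 0.0623, limma adjusted p 6.11e-05). RPC53, RPC31 and RPC82 differed by 0.45, 0.45 and 0.43, and RPA49 and RPA135 by 0.38 and 0.36. RPB11 (-0.31), RPB4 (-0.30) and RPC19 (-0.28) were lower in ume6Δ, the call of RPB11 being lost in 10 of 15 alternatives. Under TMM scaling 17 members were higher and 1 lower in ume6Δ, with 1627 of all genes higher and 1188 lower, against 1174 and 1677 as deposited. With the length trend removed, 23 were higher and 0 lower, and the shares of all genes under that setting are not given here. Across the 31 members the difference had a Spearman correlation of 0.72 with coding length, and across 5638 genes of 0.21. Of the polymerase I factors, RRN11 (0.98) and RRN6 (0.80) were higher and UAF30 (-0.50) and HMO1 (-0.47) lower in ume6Δ. Of the polymerase II factors 2 were higher, SPT5 (0.32) and SPT6 (0.30), and SUA7 (-0.22) was lower. Of the polymerase III factors 4 were lower, led by TFC6 (-0.32) and TFC8 (-0.25), and of the assembly and import factors 3, led by IWR1 (-0.36) and RTR1 (-0.33), with 0 higher in either list.

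In series 1, all 7 polymerase I subunits had lower mean levels in both mutants than in BY4741, and few passed the test. In BY4741ΔP 2 members were lower and 0 higher, where 3.67% of the 5775 genes tested were lower and 5.8% higher. In Tpho84-Tcyc1 1 member was lower and 0 higher, where 3.55% were lower and 4.42% higher. The polymerase I, III and II medians were -0.32, -0.10 and -0.05 in BY4741ΔP, and -0.30, -0.20 and 0.05 in Tpho84-Tcyc1, against 0.06 over all genes in each. In Tpho84-Tcyc1 all 3 cultures lay below all 3 BY4741 cultures for 15 of the 31 members, among them all 7 polymerase I genes, where this held for 12.8% of genes tested. In BY4741ΔP it held for 7 of the 31, where it held for 8.97% of genes tested.

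RPA12 was at 38.2, 65.6 and 43.5 RPM in BY4741ΔP, against 75.6, 78.2 and 74.7 RPM in BY4741, a difference of -0.66 (SE 0.152, limma adjusted p 0.0225). RPA49 was at 155, 133 and 142 RPM in BY4741ΔP, against 178, 217 and 194 RPM in BY4741, a difference of -0.45 (SE 0.103, limma adjusted p 0.0229). It was at 153, 160 and 133 RPM in Tpho84-Tcyc1, against the same BY4741 libraries, a difference of -0.40 (SE 0.103, limma adjusted p 0.0361). In each case the groups did not overlap. Under TMM scaling 3 members were lower and 0 higher in each mutant; of all genes 223 were then higher and 304 lower in BY4741ΔP and 160 and 324 in Tpho84-Tcyc1, against 335 and 212, and 255 and 205, as deposited. These counts were unstable: leaving out 1 library at a time gave 0 to 11 called members in BY4741ΔP, the 11 without its replicate 2, and 0 or 1 in Tpho84-Tcyc1. The shares of all genes called with a library left out are not given here. Directly against each other, BY4741ΔP and Tpho84-Tcyc1 had 0 called members by limma, edgeR and DESeq2, where limma called 0.312% of genes tested. Unadjusted p was under 0.05 for 0 members and for 513 of the 5775 genes tested. Of the partner lists, GPN3 (-0.32), an assembly GTPase, was lower in BY4741ΔP, RRN11 (-0.67) and RRN6 (-0.36) were lower in Tpho84-Tcyc1, and no other listed factor was called in either.

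**Figure D4:**
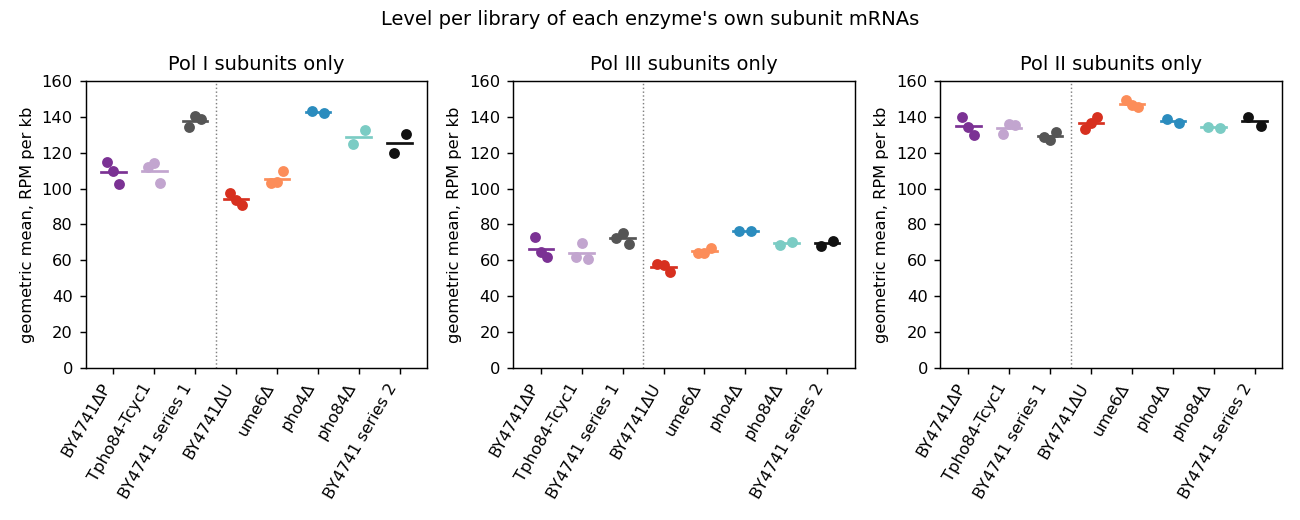
Points give, per library, the geometric mean RPM per kb of coding sequence over the subunits found in 1 enzyme only, bars the group means, and the dotted line divides the series. Polymerase I lies at 91.1 to 97.3 RPM per kb in BY4741ΔU and 103 to 110 in ume6Δ, against 120 and 131 in BY4741 of series 2. Polymerase II lies at 133 to 140 RPM per kb in BY4741ΔU and 146 to 149 in ume6Δ, against 135 and 140 in BY4741 of series 2.

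The enzymes were also compared within each library, which removes the scaling to the library total. The ratio of the geometric mean of polymerase I subunits to that of polymerase II subunits was 0.65 to 0.73 in BY4741ΔU, 0.69 to 0.752 in ume6Δ, 1.03 to 1.04 in pho4Δ and 0.93 to 0.991 in pho84Δ, against 0.857 and 0.968 in BY4741 of series 2. It was 0.789 to 0.82 in BY4741ΔP and 0.761 to 0.86 in Tpho84-Tcyc1, against 1.04 to 1.10 in BY4741 of series 1. BY4741ΔU, ume6Δ, BY4741ΔP and Tpho84-Tcyc1 thus each lay below their own BY4741 libraries without overlap, pho4Δ lay above its BY4741 libraries, and pho84Δ overlapped them. RPB3 enters the polymerase II mean and was high in ume6Δ with the genes of chromosome IX. This lowers the ratios of ume6Δ to polymerase II, both the one above and the one below. The ratio of polymerase III to polymerase II was 0.381 to 0.433 in BY4741ΔU and 0.431 to 0.458 in ume6Δ, against 0.487 and 0.525 in BY4741 of series 2, and 0.474 to 0.523 in BY4741ΔP and 0.447 to 0.514 in Tpho84-Tcyc1, against 0.527 to 0.591 in BY4741 of series 1. In ume6Δ the median difference of polymerase III genes was only -0.05, against 0.04 over all genes. The ratios were not computed without RPB3, so the lower ratio of ume6Δ is not read as a fall of polymerase III.

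In pho4Δ and pho84Δ no member was called against BY4741 of series 2, where 0.223% and 0.291% of genes tested were. Unadjusted p was under 0.05 for 9 members in pho4Δ and 5 in pho84Δ, and for 663 and 686 of the 5840 genes tested. By edgeR and DESeq2 0 members were called in each. Of the partner lists 0 genes were called in either strain. In pho4Δ both cultures lay above both BY4741 cultures for 19 of the 31 members, where this held for 24.2% of genes tested, and for 6 of 7 polymerase I genes. RPA135 was at 607 and 607 RPM in pho4Δ, against 501 and 534 RPM in BY4741, a difference of 0.23 (SE 0.0638, limma adjusted p 0.191). RPA190 was at 589 and 607 RPM in pho4Δ, against 467 and 542 RPM in BY4741, a difference of 0.25 (SE 0.0774, limma adjusted p 0.267). In pho84Δ both cultures lay above both BY4741 cultures for 8 of the 31 members, where this held for 27.2% of genes tested. RPB8 had the lowest adjusted p there, at 129 and 149 RPM in pho84Δ, against 154 and 183 RPM in BY4741, a difference of -0.28 (SE 0.0881, limma adjusted p 0.281). The 95% intervals of the 31 differences lay within -0.67 and 0.48 in pho4Δ and within -0.65 and 0.44 in pho84Δ. Directly against pho84Δ, pho4Δ had 0 called members, where 0.497% of genes tested were called. Unadjusted p was under 0.05 there for 9 members and for 389 of the 5840 genes tested. Both pho4Δ cultures lay above both pho84Δ cultures for 21 of the 31, where this held for 23.4% of genes tested.

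BY4741 itself differed between the series. Of the 31 members 5 were higher and 8 lower in series 2 than in series 1, where 18.2% and 18.9% of genes tested were. The 5 higher, RPO21 (0.78), RPA190 (0.70), RPB2 (0.56), RET1 (0.32) and RPA135 (0.28), are 5 of the 6 members with coding sequences over 3 kb. RPO21 was at 390 and 392 RPM in series 2, against 220, 207 and 256 RPM in series 1. The 8 lower were RPA12 (-0.91), RPA14 (-0.91), RPB11 (-0.68), RPC10 (-0.62), RPC19 (-0.52), RPC53 (-0.38), RPB8 (-0.34) and RPO26 (-0.30). RPA12, with 378 coding bases, was at 37.1 and 43.2 RPM in series 2, against 75.6, 78.2 and 74.7 RPM in series 1. The difference had a Spearman correlation of 0.67 with coding length over the 31 members and of 0.51 over 5659 genes. Strain is the same in both groups, and growth, extraction and sequencing of the series cannot be told apart, so levels are compared here within a series only.

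**Figure D5:**
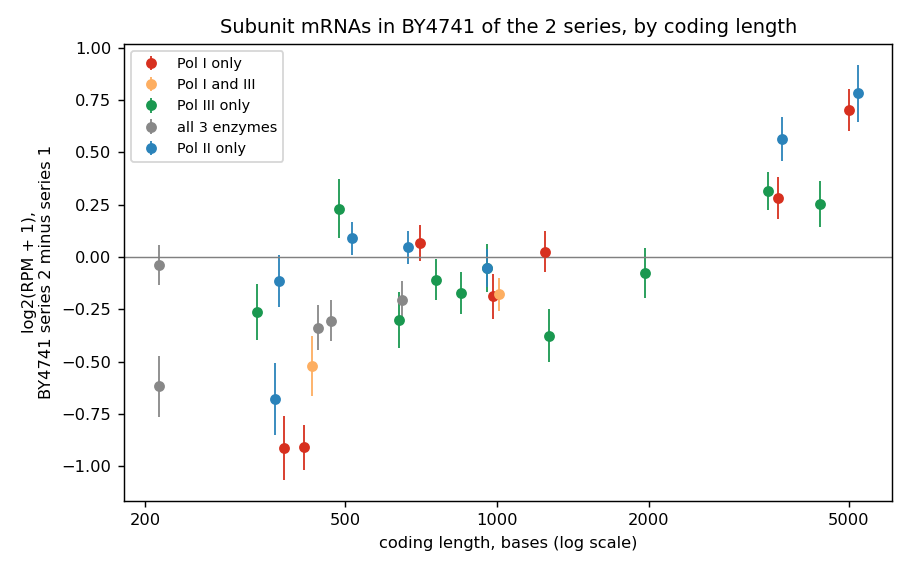
Each point is 1 of the 31 subunit genes, with coding length in bases on a log axis and the difference in log2(RPM + 1) between BY4741 of series 2 and of series 1, with its standard error. Long genes such as RPO21 (0.78) and RPA190 (0.70) lie above 0 and short ones such as RPA12 and RPA14 (-0.91 each) below it.

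The PAC core was set beside the calls. In BY4741ΔU 13 of the 16 members with GATGAG upstream were lower and 6 of the 15 without, and among all genes tested 27.2% of the 1066 with it and 10.4% of the 4572 without were lower. In ume6Δ 7 of the 16 members with it were lower and 3 of the 15 without, against 20.3% and 9.58% of all genes tested with and without it. In pho4Δ and pho84Δ 0 of the 16 were called. In BY4741ΔP 1 of the 16 with it and 1 of the 15 without were lower, against 9.19% and 2.33% of all genes tested. In Tpho84-Tcyc1 1 of the 16 and 0 of the 15 were lower, against 9.86% and 2% of all genes tested. The medians of the 16 members with GATGAG were -0.41 in BY4741ΔU, -0.17 in ume6Δ, 0.19 in pho4Δ and 0.03 in pho84Δ, and -0.18 in BY4741ΔP and -0.26 in Tpho84-Tcyc1. Those of the 15 without it were, in the same order, -0.15, -0.12, 0.04, -0.095, -0.08 and 0.0002. Over all genes tested with and without GATGAG, the medians were 0.03 and 0.17 in BY4741ΔU and -0.03 and 0.05 in ume6Δ. They were 0.08 and 0.01 in pho4Δ, 0.03 and 0.02 in pho84Δ, and -0.04 and 0.08 in both BY4741ΔP and Tpho84-Tcyc1. Among the members the motif and the enzyme largely coincide, since all 16 belong to polymerase I, III or both. Of the genes found only in these enzymes, RPA12, RPC11 and RPC17 lack it. RPC17 was lower in BY4741ΔU and in ume6Δ, and RPA12 and RPC11 were called in neither. The parts of the motif and the enzyme in these counts cannot be told apart.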

How the data were processed

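Gene values were deposited as 1 table of reads per Mread (RPM, 1 Mread being a megaread) for 21 libraries, made by the authors; per the labels' protocols, RNA from cultures frozen in liquid nitrogen was made into libraries with a stranded TruSeq kit. HISAT2, featureCounts and edgeR were used per the submitters' processing notes; versions, genome build, annotation and strand setting are not given in the sources used here. Whole reads were recovered from the RPM steps (100% of values whole within 0.01 reads), giving 10.98 to 49.8 Mreads per library. Of 7127 lines, 4 lines, with 110 to 163 RPM per library in all, were not used here.

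BY4741 replicates 1 to 3 were placed in series 1 and 4 and 5 in series 2 from their numbers and the stated design. The main test was limma (3.58.1, R 4.3.3) on log2(RPM + 1), 1 mean per group with a variance trend, each series fitted alone (all 21 libraries for BY4741 between series). Genes with at least 1 RPM in 3 (series 1) or 2 (series 2, and all 21) libraries were tested, with Benjamini-Hochberg adjustment over all of them. Alternatives were TMM scaling, a pseudocount of 0.1, no filter, edgeR 4.0.16 and DESeq2 1.42.0 on recovered reads, leaving out each library, the other series' BY4741, fits of 2 groups and a replicate block. The fits were tested on simulated data with known shifts, for BY4741ΔP, BY4741ΔU and pho4Δ against their BY4741. Shifts of 1 on the log2 scale were recovered for 100% of genes in each. Shifts of 0.5 were recovered for 81% in BY4741ΔP, 69% in BY4741ΔU and 50% in pho4Δ. The simulated spread was the same for all genes and was not taken from these cultures.

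All members are described; of each partner list, up to 2 called genes per direction are named. The members and lists were chosen with earlier results of these data known. The removal of a length trend, the removal of chromosome IX genes, the medians by chromosome, the neighbours of RPB3, the crossed pairing and the motifs searched were chosen after seeing the data. Promoters, coding lengths and coordinates are those of RefSeq R64, matched by systematic name for all 31 members; the table holds no coordinates.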

Additional observations from a re-analysis of the deposited data

How the results depend on the processing

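Under the alternatives the counts of called members held within 1.5 times of those reported, and the enzyme medians within the spread between cultures, except for the values that follow. With RPM rescaled by TMM the count in Tpho84-Tcyc1 was 3, and the medians were -0.104 (polymerase II in BY4741ΔP), -0.687 and -0.472 (polymerases I and III in BY4741ΔU) and -0.0945 (polymerase III in ume6Δ). With edgeR the count in Tpho84-Tcyc1 was 2, and the polymerase I and III medians were -0.692 and -0.476 in BY4741ΔU and -0.379 and -0.0976 in ume6Δ. With DESeq2 the counts were 5 in BY4741ΔP and 10 in Tpho84-Tcyc1, and the same medians were -0.685 and -0.470 in BY4741ΔU and -0.377 and -0.0962 in ume6Δ. Without a filter 0 members were called in Tpho84-Tcyc1, where limma had 1, and with only the 2 groups in the fit 0 in BY4741ΔP and 12 in Tpho84-Tcyc1. The cause was not tested. The shares of all genes called by edgeR, by DESeq2, without a filter and with only the 2 groups are not given here.

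With the length trend removed the counts were 10 in BY4741ΔP, 11 in Tpho84-Tcyc1 and 23 between ume6Δ and BY4741ΔU, and the medians 0.00501 (polymerase II in BY4741ΔP), -0.669 and -0.453 (polymerases I and III in BY4741ΔU) and 0.0290 (polymerase I in pho84Δ). The shares of all genes called with the trend removed are not given here. Directions turned for RPC11 in BY4741ΔU (-0.21), for RPA14 (0.21), RPC11 (0.22) and RPO26 (0.15) between ume6Δ and BY4741ΔU, and for RET1 (-0.050), RPA135 (-0.11), RPB10 (0.45) and RPO31 (-0.25) in BY4741 between the series.

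With BY4741 of the other series as the control, which differs in series as well as strain, the counts were 12 in BY4741ΔP, 12 in Tpho84-Tcyc1, 22 in ume6Δ, 13 in pho4Δ and 15 in pho84Δ. The shares of all genes called with this control are not given here, so these counts have no background beside them. BY4741 alone had 18.2% of genes tested higher and 18.9% lower in series 2 than in series 1. Polymerase III medians were -0.0116 in BY4741ΔP, -0.0646 in Tpho84-Tcyc1, -0.257 in BY4741ΔU, -0.227 in ume6Δ, 0.0364 in pho4Δ and -0.120 in pho84Δ, and polymerase I medians -0.648 in BY4741ΔU and -0.0625 in pho84Δ. Directions turned in BY4741ΔP for RPA12 (0.25), RPA14 (0.67), RPB11 (0.63), RPB2 (-0.35) and RPO21 (-0.47), and in Tpho84-Tcyc1 for RPA12 (0.49), RPA14 (0.66), RPB2 (-0.47), RPC10 (0.41) and RPO21 (-0.75). They turned in BY4741ΔU for RPA14 (-0.80), RPA190 (0.12), RPB11 (-0.48), RPB2 (0.42), RPC10 (-0.48), RPC25 (-0.28) and RPO21 (0.59), and in ume6Δ for RET1 (0.25), RPA135 (0.039), RPA14 (-0.81), RPA190 (0.38), RPB2 (0.55) and RPC53 (-0.37). They also turned in pho4Δ for RPA12 (-0.81), RPA14 (-0.74) and RPC19 (-0.45), and in pho84Δ for RPA14 (-0.69) and RPC53 (-0.35).

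Leaving out 1 library at a time gave counts of 0 to 11 in BY4741ΔP, 0 to 1 in Tpho84-Tcyc1, 16 to 20 in BY4741ΔU, 5 to 12 in ume6Δ, 0 to 1 in pho4Δ and pho84Δ, 0 to 3 between BY4741ΔP and Tpho84-Tcyc1, 14 to 16 between ume6Δ and BY4741ΔU, and 8 to 13 between the BY4741 groups. Polymerase I medians ran from -0.599 to -0.476 in BY4741ΔU, from -0.383 to -0.198 in ume6Δ, from 0.141 to 0.251 in pho4Δ and from -0.0593 to 0.137 in pho84Δ. Polymerase III medians ran from -0.204 to -0.0546 in BY4741ΔP, from -0.363 to -0.260 in BY4741ΔU and from -0.118 to -0.0133 in ume6Δ, and the polymerase II median in BY4741ΔP from -0.0623 to 0.0926. The shares of all genes called with 1 library left out are not given here.

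Replicate numbers did not pair the samples: the correlations of same-numbered deviations ran from -0.225 to 0.281 in series 1 and from -0.198 to 0.166 in series 2. With the replicate block 5 members were called in BY4741ΔP, 1 in Tpho84-Tcyc1, 0 between these strains, 15 between ume6Δ and BY4741ΔU and 0 between pho4Δ and pho84Δ. With the numbers of pho4Δ and pho84Δ crossed, chosen after seeing the data, 2 members were called, against 0 as numbered. For the series 2 mutants against BY4741 no block could be fitted, since they share no replicate numbers with it. The shares of all genes called with a block are not given here.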
